A study of Mus musculus with 2 samples.

Results

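The nuclear genes of the mitochondrial respiratory chain were followed in primary osteoblasts of Slc39a13-KO and wild-type newborn mice. Members were all probe sets whose annotation names exactly 1 gene symbol beginning with Ndufa, Ndufb, Ndufc, Ndufs, Ndufv, Uqcr, Atp5 or Cox4 to Cox8, together with Sdha, Sdhb, Sdhc and Sdhd. Each probe set reads a transcript through several short oligonucleotides on the array, and some, marked by a suffix in their name, can match more than 1 transcript. This gave 90 genes read by 179 probe sets, of 18193 genes and 34945 single-symbol probe sets in all. The rule did not use any measured value. It also takes in the Ndufaf genes, which encode assembly factors of complex I rather than subunits.

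The respiratory chain sits in the inner mitochondrial membrane. Complex I takes electrons from NADH and complex II takes them from succinate, complex III passes them from ubiquinol to cytochrome c, and complex IV, cytochrome c oxidase, hands them to oxygen. Complexes I, III and IV pump protons across the membrane, and complex V, the ATP synthase, uses the return flow to make ATP. Complexes I, III, IV and V combine a few subunits encoded in the mitochondrial DNA with many encoded in the nucleus, whereas complex II is encoded in the nucleus alone. In bone, differentiating osteoblasts are known to draw on glycolysis as well as on oxidative phosphorylation.

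The series holds 2 arrays, 1 of Slc39a13-KO and 1 of wild-type osteoblasts, so no difference below has a replicate check and no p-value was computed. Slc39a13 encodes a zinc transporter of the ZIP family, and the targeted allele carries a Neo cassette in place of several of its exons. Cells were freed from the skull vault by serial enzyme digestion, the later fractions were grown in medium with calf serum, and no other treatment is given in the labels. How many pups went into each culture, and of which sex, is not stated in the labels or the study's methods. Slc39a13 itself had a signal of 90.4 in the Slc39a13-KO array and 1309 in the wild-type array, 14.5-fold lower in Slc39a13-KO (log2 ratio -3.86). The place of its probe set relative to the removed exons was not examined here, so this value checks the label only in part.

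Signals are linear MAS5 intensities scaled to the same trimmed mean in each array, and each ratio is the log2 of Slc39a13-KO over wild-type. Values under a floor of 85.1, the median of all signals, were raised to it, and a gene counted as measured where a probe set exceeded the floor in at least 1 array. A gene took the mean ratio of its measured probe sets, and the SD between those probe sets is the only spread these data hold. All probe sets were read on the same 2 arrays, so this SD holds no error of animal, culture or array. The SD had a median of 0.24 over the respiratory chain genes and 0.34 over all genes. A gene was called higher or lower at 2-fold or more with all its probe sets on the same side. Of the 90 respiratory chain genes, 84 were measured, against 12269 of the 18193 genes on the array. Ndufa4l2 passed the floor through the wild-type array alone.

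Relative to the bulk of genes, transcripts of the respiratory chain were slightly lower in Slc39a13-KO osteoblasts. As scaled, complex medians ran from -0.15 (complex II) to -0.44 (complex IV), and that of complex II changed sign with the choice of probe set. The median log2 ratio was -0.28 over the 84 genes, against 0.11 over all 12269 measured genes. Because well expressed genes can differ from dim ones, the 2812 genes with a mean signal of 1000 or more were taken as a closer comparison, and their median was -0.05. As scaled, 71 of the 84 genes (84.5%) had a ratio below 0, against 41.7% of all genes and 53.7% of the bright genes, but this sign turned with the scaling, since 2 of 85 genes were below 0 when the arrays were matched on their added poly-A control RNAs. As scaled, 76 of 84 genes were below the median of all genes. Matched on poly-A controls 70 of 85 were, but since that scaling moves every gene by the same factor, this count could change only through the floor. The median of the bright respiratory chain genes was -0.29 (67 genes), and 59 of them were below 0 (88.1%). Fewer cells of a type and less RNA per cell cannot be told apart in these bulk samples.

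The differences were small for most genes as scaled. At 2-fold, 0 of 84 genes were called higher and 1, Atp5md, was called lower, against a background of 8.01% higher and 5.93% lower among all measured genes (6.22% and 5.44% among bright genes). These counts rest on the scaling, since 12 were called higher and 0 lower with the arrays matched on poly-A controls. There the median of all genes was itself 0.94, close to 2-fold. The share of all genes called under that scaling was not counted, so those 12 have no background beside them. At 1.5-fold, 0 were higher and 11 were lower, where the background was 19.4% higher and 12.1% lower (13.5% and 14.2% among bright genes). The remaining 73 genes lay within 1.5-fold of equal signals. The share of respiratory chain genes past the lower threshold was thus under the background at 2-fold and near it at 1.5-fold. Their quartiles (-0.46 and -0.11) lay closer together than those of all genes (-0.27 and 0.48).

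As scaled, genes read by several probe sets had all of them below 0 more often than genes in general. Of 45 genes read by several measured probe sets, 28 (62.2%) had all of them below 0, 1 (2.22%), Uqcrh, had all of them above 0, and 16 were mixed. Among all genes with several probe sets 23.5% were wholly below 0 and 37.1% wholly above, and among bright ones the shares were 34.0% and 28.9%. Mixed genes were 2244 of 5700 among all and 487 of 1310 among bright ones, so probe sets agreed in sign about as often elsewhere. Counted singly, 124 of 156 measured probe sets (79.5%) were below 0, against 42.4% of all probe sets. These splits are as scaled, and 2 of 85 genes were below 0 with poly-A control scaling. Across the 84 genes, which are not independent replicates, the ratio hardly followed the mean signal (r = -0.04, and -0.07 across all genes).

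**Figure D1:**
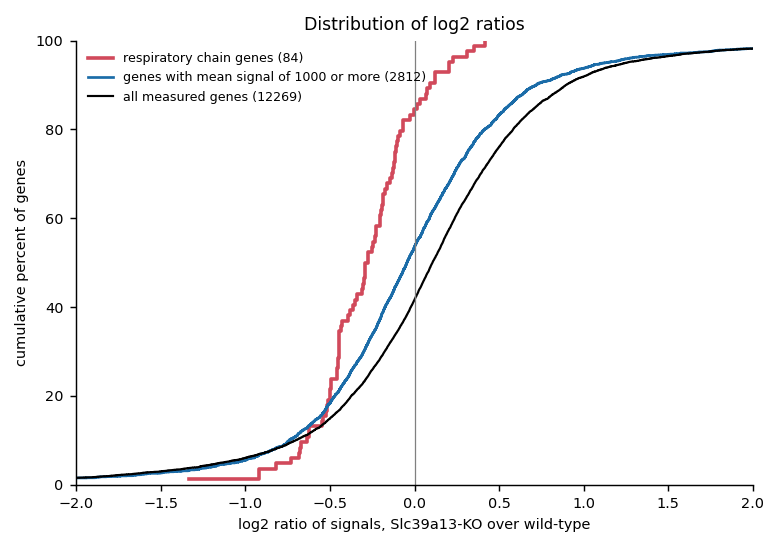
Cumulative percent of genes (y axis) at or below each log2 ratio of Slc39a13-KO over wild-type signals (x axis, shown from -2 to 2) for the 84 respiratory chain genes, the 2812 bright genes and all 12269 measured genes, with 1 array per genotype. As scaled, the curve of the respiratory chain crosses 0 at 84.5%, against 53.7% and 41.7% for the others, and is steeper; matched on poly-A controls, 2 of 85 respiratory chain genes were below 0.

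Of the array properties examined, the added poly-A controls differed most between the 2 arrays. With 1 array per genotype, any difference between the arrays goes with the genotype. All 24 poly-A control probe sets were lower in the Slc39a13-KO array (median log2 ratio -1.02), and scaling on them set the median of all genes at 0.94. The 18 hybridisation controls had a median of -0.16. The 3' to 5' signal ratio was 1.26 in Slc39a13-KO and 1.30 in wild-type for beta-actin, and 0.752 in Slc39a13-KO and 0.796 in wild-type for Gapdh. The part of the control values in the results was not tested.

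Markers of other cell types also differed. All 10 chondrocyte markers were called higher in Slc39a13-KO, where their summed signal was 126326, against 3668 in wild-type, with Acan, Matn1, Cnmd, Col11a2, Matn3 and Hapln1 at the floor in wild-type. Smooth muscle markers, 7 of 10 called lower and 1 higher, summed to 17783 in Slc39a13-KO and 45919 in wild-type. Of 5 measured skeletal muscle markers 4 were lower (summed signal 778 in Slc39a13-KO, 1943 in wild-type), of 9 macrophage markers 6 were higher and 1 lower (4125 in Slc39a13-KO, 1509 in wild-type), and of 5 adipocyte markers 3 were higher (3026 in Slc39a13-KO, 933 in wild-type). Of the osteoblast markers, the type I collagen genes were strongly expressed in both arrays. Col1a2 was 25943 in Slc39a13-KO and 28504 in wild-type (log2 ratio -0.14). Col1a1 was 7655 in Slc39a13-KO and 12230 in wild-type (-0.68), and the probe sets of each collagen gene were of mixed sign. Sp7 was 153 in Slc39a13-KO and 94.8 in wild-type (0.70), short of a call. Alpl was 197 in Slc39a13-KO and at the floor in wild-type, and Ibsp was below the floor in both. The summed signal of the 6 measured osteoblast markers was 35867 in Slc39a13-KO and 41293 in wild-type, most of it from the collagen genes, while the median log2 ratio of the list was 0.95. Called higher were Pth1r, the parathyroid hormone receptor (5.20-fold), Dmp1, a matrix protein of maturing bone cells (at least 4.50-fold), and Alpl (at least 2.32-fold). The part of these cell types in the ratios of the respiratory chain was not tested.

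Short motifs were counted in the promoters of these genes. Of the 90 genes, 74 had an entry in the RefSeq promoter table (GRCm38.p6, 250 bases before to 50 after the transcript start), and both strands were searched for 3 sets of letters found in the sites of factors known to act on respiratory chain genes. GCGCANGC, part of the NRF1 site, was in 23 of 74 genes (31.1%), against 11.2% of all genes in the table and 21.9% of measured genes. CCGGAAG, an ETS site of the kind that GABP binds, was in 19 (25.7%), against 9.93% of all genes and 19.4% of measured genes. AAGATGG, of the YY1 site, was in 11 (14.9%), against 7.28% and 8.07%. At least 1 of the 3 was in 43 genes (58.1%), against 24.6% of all and 41.1% of measured genes, while TATAAA was in 8 (10.8%), against 15.7% and 9.21%.

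Genes with and without the letters of the 3 factors had nearly the same ratios. The median log2 ratio was -0.30 with and -0.28 without the NRF1 letters, -0.31 with and -0.27 without the ETS letters, and -0.27 with and -0.29 without the YY1 letters. For TATAAA it was -0.47 with (6 genes) and -0.28 without (63 genes), a difference that was not tested. The 200 bases before the start are shown for 5 genes, picked after their values were seen, 5' to 3' on the strand of the gene with matches on either strand in capitals. They are Atp5md, the gene called lower, and a pair for each of 2 motifs in which the members differed in ratio, Ndufs5 (-0.92) and Sdha (0.07) with NRF1 letters, and Uqcr11 (-0.63) and Uqcrh (0.35) with ETS letters. The capitals in Atp5md are TATAAA read on the opposite strand.
Atp5md (chr19:47090648-47090847, minus strand): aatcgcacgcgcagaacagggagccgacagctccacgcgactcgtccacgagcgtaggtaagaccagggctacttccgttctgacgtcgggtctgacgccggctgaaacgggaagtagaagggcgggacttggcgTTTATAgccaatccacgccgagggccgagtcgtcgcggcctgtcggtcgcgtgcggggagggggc
Ndufs5 (chr4:123718187-123718386, minus strand): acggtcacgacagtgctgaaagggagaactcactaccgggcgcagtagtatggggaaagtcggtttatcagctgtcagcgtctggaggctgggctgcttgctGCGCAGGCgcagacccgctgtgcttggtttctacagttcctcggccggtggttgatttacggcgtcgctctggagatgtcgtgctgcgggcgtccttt
Sdha (chr13:74350241-74350440, minus strand): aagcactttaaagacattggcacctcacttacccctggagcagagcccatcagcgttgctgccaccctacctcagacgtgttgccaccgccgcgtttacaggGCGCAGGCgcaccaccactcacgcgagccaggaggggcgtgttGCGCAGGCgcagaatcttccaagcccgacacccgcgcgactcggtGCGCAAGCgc
Uqcr11 (chr10:80406822-80407021, minus strand): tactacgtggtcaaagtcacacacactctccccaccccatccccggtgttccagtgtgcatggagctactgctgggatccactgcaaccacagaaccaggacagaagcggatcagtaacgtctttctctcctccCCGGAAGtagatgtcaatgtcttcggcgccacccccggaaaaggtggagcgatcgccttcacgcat
Uqcrh (chr4:116075071-116075270, minus strand): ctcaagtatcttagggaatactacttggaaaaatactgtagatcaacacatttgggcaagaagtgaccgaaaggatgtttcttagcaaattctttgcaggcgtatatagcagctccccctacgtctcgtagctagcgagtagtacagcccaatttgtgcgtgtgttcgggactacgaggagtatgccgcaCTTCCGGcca
Because the pairs were picked for their ratios, nothing is read from that contrast, and Sdha is not separated from 0 by its probe sets. A match is a description of these windows and not a bound site.

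**Figure D2:**
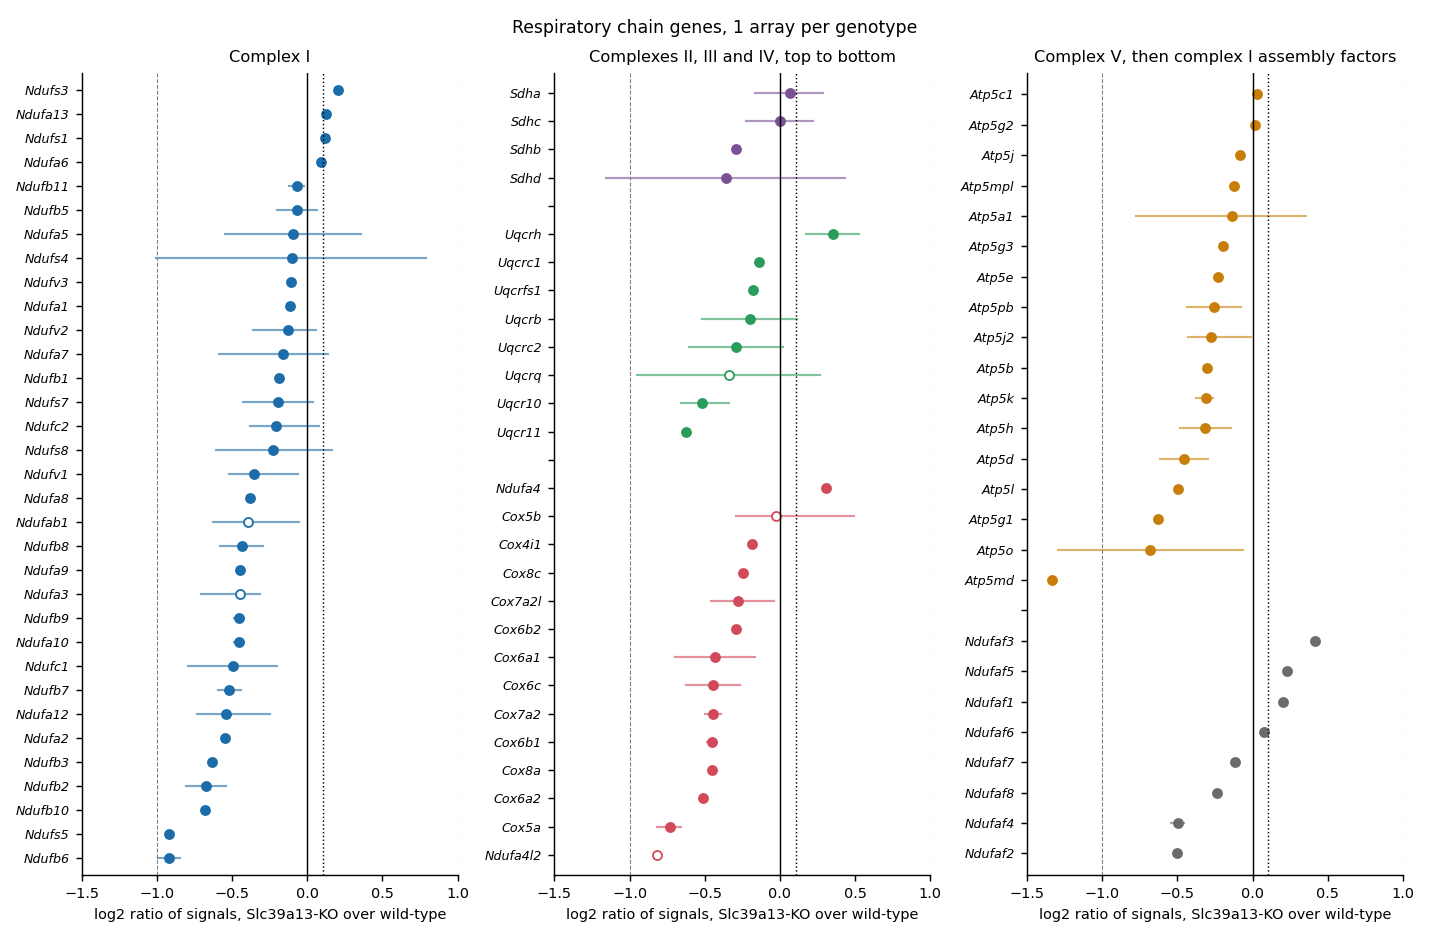
The log2 ratio of Slc39a13-KO over wild-type signals (x axis) for each of the 84 measured genes (rows, ordered within each complex), as scaled, with 1 array per genotype. Points are gene means and bars run from the lowest to the highest probe set. Open points hold a probe set at the floor in 1 array, the dotted line is the median of all genes (0.11) and the dashed lines mark 2-fold. Most points lie left of both the 0 line and the dotted line, and 1 gene, Atp5md, lies past the dashed line; with poly-A control scaling 2 of 85 genes were left of 0.

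Complex I, NADH dehydrogenase, had 33 measured subunit genes with a median log2 ratio of -0.35, and 29 were below 0 as scaled. The core subunits include the carriers of the flavin and the iron-sulphur clusters. As scaled, they stood closer to equal signals than the accessory ones, a difference that was not tested. With poly-A control scaling the core genes Ndufs3 and Ndufs1 were 1.23 and 1.14, farther from equal signals than the complex median of 0.67. The 6 measured core genes had a median of -0.16 with 4 below 0, and the 27 accessory genes had a median of -0.44 with 25 below 0. Among core genes Ndufs3, of the arm that leads electrons to ubiquinone, had signals of 3664 in Slc39a13-KO and 3179 in wild-type (log2 ratio 0.20), the highest of the complex. Ndufs1, which carries several of the clusters, had 1775 in Slc39a13-KO and 1634 in wild-type (0.12). Ndufv1, the subunit that binds NADH, lay on the other side, at 3127 in Slc39a13-KO and 3999 in wild-type (-0.35 ± 0.25, SD over 3 probe sets). The other cluster-bearing core genes were between these. Ndufv2 was 4339 in Slc39a13-KO and 4739 in wild-type (-0.13 ± 0.21, 3 probe sets). Ndufs7 was 2575 in Slc39a13-KO and 2945 in wild-type (-0.19 ± 0.33, 2 probe sets). Ndufs8 was 2246 in Slc39a13-KO and 2632 in wild-type (-0.23 ± 0.26, 6 probe sets). Except for Ndufv1, each of these spreads was as large as the ratio itself or larger. They are spreads between probe sets on the same 2 arrays, so they cannot show whether any of these genes, Ndufv1 included, differs by genotype.

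The lowest genes of complex I encode accessory subunits of its membrane arm. Ndufb6 was 4550 in Slc39a13-KO and 8603 in wild-type, and both its probe sets were low (-0.99 and -0.85), 1.89-fold lower on average. Ndufs5 was 3647 in Slc39a13-KO and 6890 in wild-type, also 1.89-fold lower by its single probe set (-0.92). Neither reached the 2-fold threshold as scaled, and both passed it when the arrays were matched on their medians, whereas with poly-A control scaling 0 genes were called lower and Ndufb6 stood at 0.10. Ndufb10 (3608 in Slc39a13-KO, 5795 in wild-type, -0.68), Ndufb2 (2864 in Slc39a13-KO, 4565 in wild-type, -0.67) and Ndufb3 (2913 in Slc39a13-KO, 4529 in wild-type, -0.64) followed. All 10 measured Ndufb genes, most of which belong to the membrane arm, were below 0, with a median of -0.49, against medians of -0.39 for 12 Ndufa genes, -0.15 for 6 Ndufs genes and -0.13 for 3 Ndufv genes. Both Ndufc genes were below 0 (median -0.35).

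Other accessory genes of complex I were close to equal signals as scaled. Ndufa13, also known as GRIM-19, was 14962 in Slc39a13-KO and 13748 in wild-type (0.12), and Ndufa6 was 3938 in Slc39a13-KO and 3699 in wild-type (0.09). Ndufs4, an accessory subunit of the arm that takes up NADH, gave no clear ratio because its probe sets disagreed. Its brightest probe set was 2228 in Slc39a13-KO and 2366 in wild-type (-0.09), another was 351 in Slc39a13-KO and 706 in wild-type (-1.01), and a dimmer one was 174 in Slc39a13-KO and 101 in wild-type (0.79). Ndufab1, the mitochondrial acyl carrier protein, was 4579 in Slc39a13-KO and 7068 in wild-type by its brightest probe set (-0.63), while 2 of its other probe sets were at the floor in Slc39a13-KO. Ndufb4 was below the floor in both arrays by its only single-symbol probe set, at 45.7 in Slc39a13-KO and 22.2 in wild-type.

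The 8 measured assembly factors of complex I, proteins that help build the complex without staying in it, had a median ratio of -0.02, with 4 of 8 below 0 as scaled and 5 of 8 below the median of all genes. Ndufaf3 was the highest of all members, at 1148 in Slc39a13-KO and 861 in wild-type (0.41). Ndufaf2 was the lowest of the assembly factors, at 812 in Slc39a13-KO and 1149 in wild-type (-0.50), followed by Ndufaf4 at 475 in Slc39a13-KO and 671 in wild-type (-0.50 ± 0.06, 2 probe sets). Whether assembly factors and subunits differ was not tested.

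Complex II, succinate dehydrogenase, had the smallest median difference of the 5 complexes as scaled (-0.15, 4 genes), and its sign depended on the choice of probe set. Sdha, the flavoprotein that oxidises succinate, was 970 in Slc39a13-KO and 924 in wild-type as a mean over 3 probe sets (0.07 ± 0.23). Its brightest probe set was 4835 in Slc39a13-KO and 3963 in wild-type (0.29). Sdhb, the iron-sulphur subunit, was 5039 in Slc39a13-KO and 6161 in wild-type (-0.29, 1 probe set). The membrane anchors were not settled by their probe sets. Sdhc was 2881 in Slc39a13-KO and 2885 in wild-type (-0.00 ± 0.31, 2 probe sets). For Sdhd, a probe set at 2553 in Slc39a13-KO and 1893 in wild-type (0.43) opposed one at 370 in Slc39a13-KO and 825 in wild-type (-1.15). With the brightest probe set of each gene the median of the complex was 0.03, which is 0.08 above that of the bright genes.

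Complex III, ubiquinol-cytochrome c reductase, had a median of -0.25 over 8 genes, of which 7 were below 0 as scaled. Uqcrfs1, the Rieske iron-sulphur protein, was 3051 in Slc39a13-KO and 3450 in wild-type (-0.18). The core proteins Uqcrc1 (3986 in Slc39a13-KO, 4399 in wild-type, -0.14) and Uqcrc2 (4417 in Slc39a13-KO, 5404 in wild-type, -0.29 ± 0.44, 2 probe sets) were alike within the spread of probe sets. The small subunits covered the whole range of the complex. Uqcr11 was lowest, at 3801 in Slc39a13-KO and 5865 in wild-type (-0.63, 1 probe set), and Uqcr10 was -0.52 ± 0.16 with all 3 probe sets below 0. Uqcrh, the acidic hinge protein near the docking site of cytochrome c, was 12986 in Slc39a13-KO and 10186 in wild-type (0.35 ± 0.25), with both probe sets above 0 (0.17 and 0.53). The brightest probe set of Uqcrq was 3570 in Slc39a13-KO and 6906 in wild-type (-0.95), but a dim one was 116 in Slc39a13-KO and 96.3 in wild-type (0.26).

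**Figure D3:**
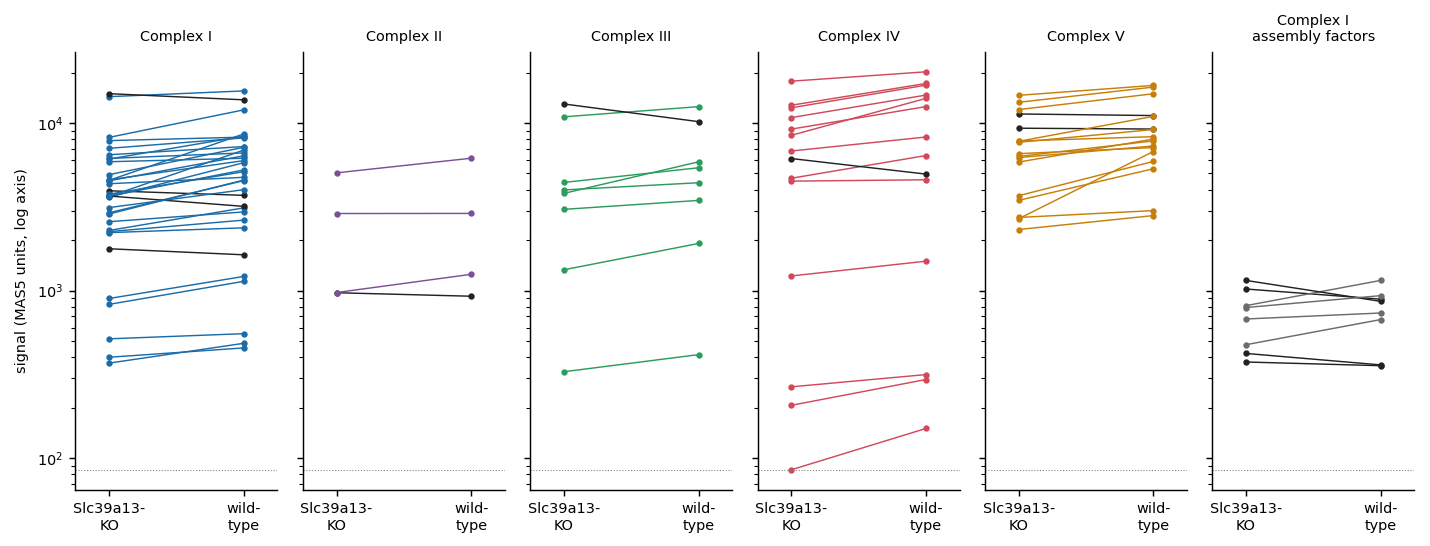
Signal of each measured gene (y axis, MAS5 units on a log axis, geometric mean over probe sets) in the Slc39a13-KO array (left) and the wild-type array (right) of each panel, 1 panel per complex, with a line joining the same gene. Coloured lines have a ratio below 0, black lines have a ratio of 0 or more, and the dotted line is the floor of 85.1. Coloured lines are 71 of the 84 as scaled, and 2 of 85 genes were below 0 with poly-A control scaling.

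Complex IV, cytochrome c oxidase, had the lowest median of the 5 complexes as scaled, -0.44 over 14 genes, with 13 below 0. With the brightest probe set of each gene it was -0.34, and complex I was lower at -0.42. Its nuclear subunits surround a catalytic core encoded in the mitochondrial DNA. Cox5a was the lowest of those expressed in most tissues, at 8439 in Slc39a13-KO and 14025 in wild-type, and its 3 probe sets lay close together (-0.73 ± 0.08), 1.66-fold lower. Cox5b, its neighbour in name and a zinc-binding subunit, showed almost equal signals, at 4496 in Slc39a13-KO and 4582 in wild-type (-0.03 ± 0.30, 5 probe sets). Leaving aside a dim probe set that was at the floor in wild-type, the other probe sets of Cox5b gave -0.29 to -0.05. Cox4i1, the constitutive form of subunit IV, was 17764 in Slc39a13-KO and 20206 in wild-type (-0.19). Ndufa4, once counted with complex I and now assigned to complex IV, was the gene of the complex above 0, at 6134 in Slc39a13-KO and 4953 in wild-type (0.31).

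A run of small subunits of complex IV had almost the same ratio. Cox6b1 was 12321 in Slc39a13-KO and 16818 in wild-type (-0.45 ± 0.05, 2 probe sets). Cox7a2 was 10768 in Slc39a13-KO and 14680 in wild-type (-0.45 ± 0.08, 2 probe sets). Cox8a was 4679 in Slc39a13-KO and 6391 in wild-type (-0.45 ± 0.01, 2 probe sets). Cox6c (-0.45 ± 0.25) and Cox6a1 (12764 in Slc39a13-KO, 17210 in wild-type, -0.43 ± 0.37) matched them with a wider spread. All 10 of the probe sets behind these 5 genes were below 0. Cox7a2l, which helps join complexes III and IV into supercomplexes, was 6802 in Slc39a13-KO and 8248 in wild-type (-0.28 ± 0.21, 3 probe sets).

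The tissue isoforms of complex IV were either below the floor or had ratios below 0 as scaled. The heart and skeletal muscle isoforms Cox7a1 (20.1 in Slc39a13-KO, 24.5 in wild-type) and Cox8b (8.0 in Slc39a13-KO, 18.2 in wild-type) were below the floor in both arrays, and Cox6a2 was 206 in Slc39a13-KO and 294 in wild-type (-0.51). A second probe set of Cox6a2 was below the floor (9.1 in Slc39a13-KO, 65.0 in wild-type). Counting it moved the ratio to -0.70 with a floor at the 30th percentile and to -1.68, a call of lower, with none. Cox4i2, the isoform of subunit IV best known in lung and in low oxygen, was also below the floor (50.9 in Slc39a13-KO, 44.4 in wild-type), and so was Cox7b2 (37.0 in Slc39a13-KO, 16.5 in wild-type). The testis isoforms Cox6b2 (1221 in Slc39a13-KO, 1496 in wild-type, -0.29) and Cox8c (266 in Slc39a13-KO, 315 in wild-type, -0.24) were measured in both arrays. A second probe set of Cox8c was below the floor (74.7 in Slc39a13-KO, 25.1 in wild-type), and counting it turned the ratio to 0.43 with a floor at the 30th percentile and 0.66 with none. Ndufa4l2, the hypoxia-induced relative of Ndufa4, was below the floor in Slc39a13-KO (62.1) and 150 in wild-type, at least 1.76-fold lower in Slc39a13-KO. Both probe sets of Cox7c, a subunit made in most tissues, were below the floor in both arrays (73.5 and 71.7 in Slc39a13-KO, 37.2 and 33.9 in wild-type), so its level was not measured here.

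Complex V, the ATP synthase, had 17 measured genes with a median of -0.28, and 15 were below 0 as scaled. Atp5md, also called DAPIT, a small membrane subunit that helps hold the synthase together, was the gene called lower. Its signal was 2683 in Slc39a13-KO and 6756 in wild-type, 2.52-fold lower (log2 ratio -1.33), read by 1 probe set, so it has no second reading. The call was lost with poly-A control scaling, where the ratio was -0.31. The next lowest, Atp5o, the peripheral stalk protein that confers oligomycin sensitivity, had probe sets that differed in size, at 7673 in Slc39a13-KO and 8010 in wild-type (-0.06), and at 1767 in Slc39a13-KO and 4339 in wild-type (-1.30). The catalytic head was close to the bulk of the complex. Atp5b, the catalytic beta subunit, was 13290 in Slc39a13-KO and 16379 in wild-type (-0.30). Atp5c1, the gamma subunit that turns inside the head, was 11319 in Slc39a13-KO and 11075 in wild-type (0.03). Atp5d (5845 in Slc39a13-KO, 8018 in wild-type, -0.46 ± 0.23) and Atp5e (6217 in Slc39a13-KO, 7292 in wild-type, -0.23), of the central stalk, were below 0. Atp5a1, the alpha subunit, had a mean of -0.14, but its bright probe sets gave 0.36 and 0.01 and a dim one gave -0.77.

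The c-ring, the rotor in the membrane, is built from a mature protein that Atp5g1, Atp5g2 and Atp5g3 all encode. Atp5g1 was 3453 in Slc39a13-KO and 5331 in wild-type (-0.63). Atp5g2 was 9308 in Slc39a13-KO and 9200 in wild-type (0.02). Atp5g3 was 14625 in Slc39a13-KO and 16763 in wild-type (-0.20). Each was read by 1 measured probe set, and Atp5g1 was the c-ring gene past 1.5-fold. By part of the enzyme the medians were -0.23 for 5 head and central stalk genes, -0.28 for 4 peripheral stalk genes, -0.20 for the 3 c-ring genes and -0.31 for 5 other membrane genes, differences smaller than the spread within each part.

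Outside these members, other mitochondrial genes were taken from lists. The electron carriers and dehydrogenases that feed the chain were uneven, with 2 of 9 measured genes called lower, 1 higher and a median of -0.54. The background among all measured genes was 8.01% higher and 5.93% lower, and 9 genes are few to set against it. Cycs, which encodes cytochrome c, was 3225 in Slc39a13-KO and 7252 in wild-type, 2.25-fold lower, and Cyc1, the cytochrome c1 protein of complex III, was 3788 in Slc39a13-KO and 6333 in wild-type (-0.74). Coq10b, a coenzyme Q binding protein, was 764 in Slc39a13-KO and 1597 in wild-type, 2.09-fold lower. Gpd2, the mitochondrial glycerol phosphate dehydrogenase, was called higher at 695 in Slc39a13-KO and 270 in wild-type, at least 2.58-fold. Etfa, of the flavoprotein that takes electrons from fatty acid oxidation, was 4544 in Slc39a13-KO and 2356 in wild-type (0.95), just short of the threshold.

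The remaining lists each held at most 1 gene called in each direction, beside a background of 8.01% higher and 5.93% lower among all measured genes. Of 35 measured assembly factors outside the rule 0 were called in either direction (median -0.21), and the lowest was Cox17, a copper chaperone of complex IV, at 2952 in Slc39a13-KO and 5869 in wild-type (-0.99). Of 20 protein import genes 0 were called in either direction, 18 were below 0 as scaled, and the median was -0.48. The 76 genes of the mitochondrial ribosome had a median of -0.17, with Mrps6 called higher (4745 in Slc39a13-KO, 2133 in wild-type) and Mrps14 called lower (776 in Slc39a13-KO, 1651 in wild-type). In the citric acid cycle (16 genes, median -0.19) Mdh2, malate dehydrogenase, was called lower at 7407 in Slc39a13-KO and 15281 in wild-type, and Idh2, isocitrate dehydrogenase, higher at 597 in Slc39a13-KO and 278 in wild-type. The 7 measured carriers and outer membrane channels had a median of -0.22 with 0 called in either direction. The regulators of mitochondrial genes, 17 measured, stood at a median of 0.16 with 1 called lower. This was Esrra, a nuclear receptor that acts on respiratory chain genes with the PGC-1 coactivators, at 325 in Slc39a13-KO and 874 in wild-type, 2.69-fold lower by its single probe set. Gabpa, whose ETS site letters are given above, was 850 in Slc39a13-KO and 710 in wild-type (0.26).

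**Figure D4:**
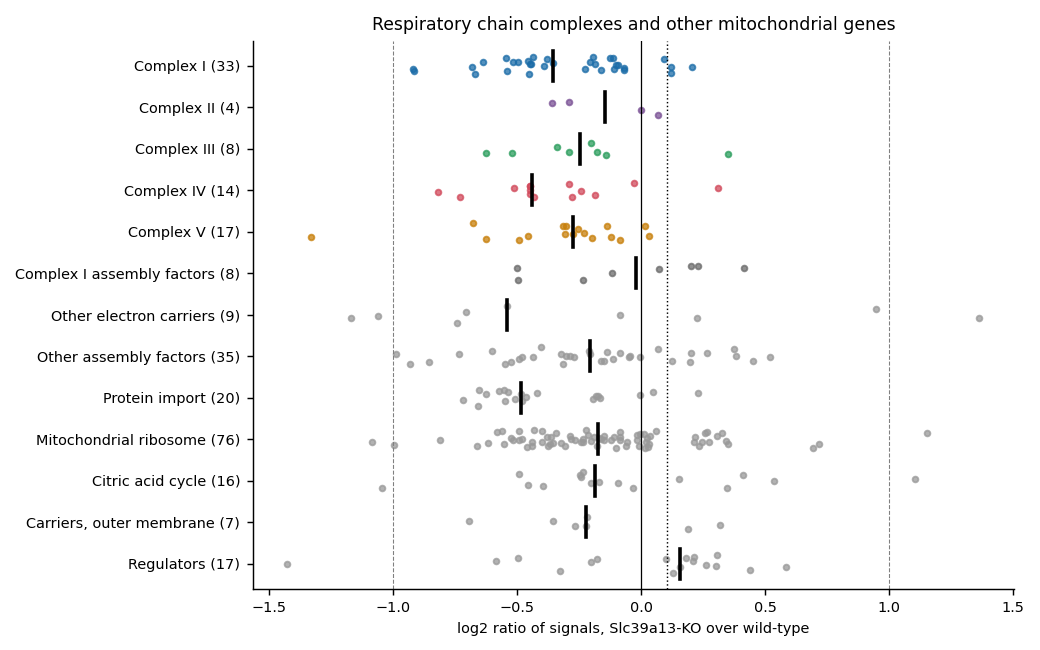
The log2 ratio of Slc39a13-KO over wild-type signals (x axis, as scaled) for each measured gene of the 5 complexes and the complex I assembly factors (coloured points) and of 7 other mitochondrial lists (grey points), with black bars at the medians and the number of measured genes in brackets; height within a row has no meaning. The dotted line is the median of all genes (0.11) and the dashed lines mark 2-fold. Medians of the complexes lie between -0.44 and -0.15, with import genes at -0.48 and regulators at 0.16; with poly-A control scaling the complex medians were 0.57 to 0.85 where that of all genes was 0.94.

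**Figure D5:**
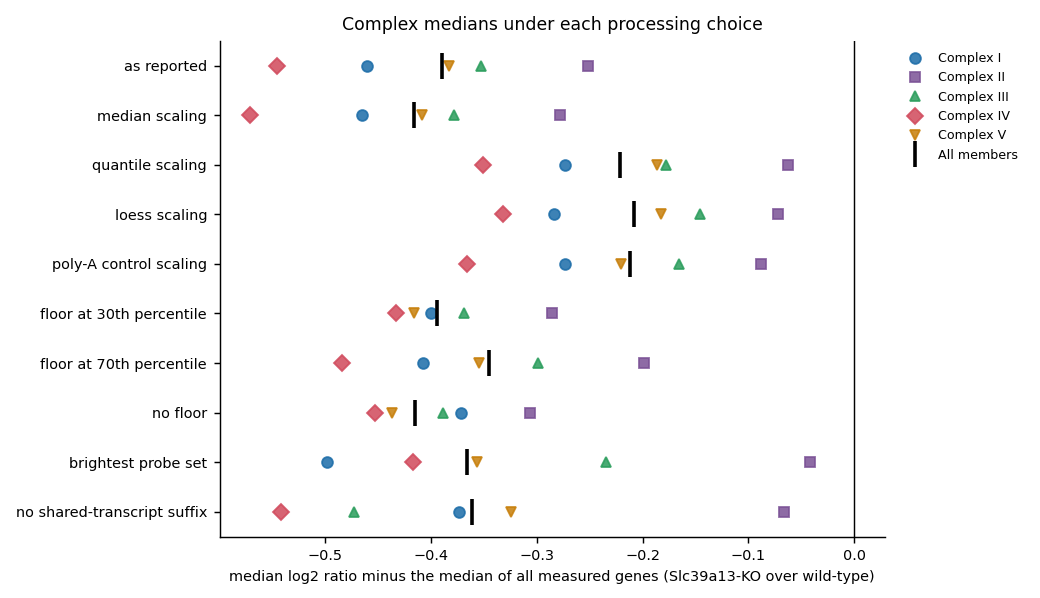
Median log2 ratio of each complex and of all members minus the median of all measured genes (x axis), under the processing as reported and 9 alternatives (rows). Every median lies below 0, from -0.57 for complex IV with median scaling to -0.04 for complex II with the brightest probe set of each gene. Median and poly-A control scaling move all genes by the same factor and bear on these values only through the floor.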

How the data were processed

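Signal intensities of 1 Slc39a13-KO and 1 wild-type array were used as deposited. The authors computed these linear intensity values with MAS5, per the submitters' processing notes, which give no version. The methods of the study name gcRMA for its own analysis, but both deposited columns have a 2% trimmed mean of 500.003, which sets total mRNA differences aside. Low MAS5 signals are noisy, and the number of arrays limits the precision.

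Of 45101 probe sets (64 controls), 34945 had 1 symbol in the platform annotation, and 34741 of these (99.4%) matched RefSeq (GRCm38.p6), with 0 symbols changed. The 13 mitochondrially encoded subunits had no named probe set and were not analysed here. Values were computed with Python 3.11.15, numpy 2.4.6, pandas 2.3.3, scipy 1.17.1 and statsmodels 0.14.6, and figures with matplotlib 3.10.9. Calls were checked on simulated data with known changes.

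With 1 array per genotype no test was possible. The members, lists and naming rule were chosen with earlier results of these data known. The rule names called genes, the extremes of each complex, core and catalytic subunits, isoform families, and genes whose probe sets oppose each other by 1 or more on the log2 scale. Further members in the text were chosen from their values. The 9 alternatives were median, quantile, loess (span 0.3) and poly-A control scaling, floors at the 30th and 70th percentiles or none, the brightest probe set, and only probe sets without a shared-transcript suffix. A 1.5-fold threshold was also used.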

Additional observations from a re-analysis of the deposited data

How the results depend on the processing

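Relative to the median of all genes, the respiratory chain and each complex stayed below 0 under all 9 alternatives, of which median and poly-A control scaling, constant factors, could change this only through the floor. Relative to the bright genes complex II was 0.08 above with the brightest probe set or without suffixed ones. With poly-A control scaling every median reversed, to 0.73 for all members, 0.67 for complex I, 0.85 for II, 0.78 for III, 0.57 for IV and 0.72 for V, where all genes were at 0.94. That scaling called 12 genes higher and 0 lower and left 2 of 85 below 0, and Atp5md, called lower under each other alternative, was then -0.31. The shares of all genes called under the 9 alternatives were not counted. Median scaling gave -0.53 for all members, -0.58, -0.39, -0.49, -0.68 and -0.52 for complexes I to V, and called 3 genes lower (Atp5md, Ndufb6 and Ndufs5). Complex II reversed to 0.032 with the brightest probe set and to 0.060 without suffixed probe sets. Leaving those out, which keeps 62 genes, gave -0.25 for complex I, -0.35 for III, and 47 genes below 0. Complex IV was -0.34 with loess scaling and -0.29 with either the lower floor (30th percentile) or none, and complex I was -0.21 with no floor. That lower floor called 1 gene higher (Cox7c) and 2 lower, no floor called 3 higher and 6 lower, and a 1.5-fold threshold called 11 lower. Apart from the floors and suffixes, which change the genes or probe sets counted, the cause was not tested. The number of genes below 0 or below the median of all genes was otherwise within 1.5 times its value as reported, a comparison added after the data were seen. Of 373 values of named genes under the alternatives, 300 moved by less than the SD between the gene's probe sets, or by less than the median SD over all genes (0.34) for a gene read by 1, which has no SD of its own. Part of this was fixed in advance. A gene with 1 probe set well above each floor keeps its value under the floor and probe set choices, as Atp5b did at -0.30. Median scaling moves every gene by the same factor, which was below that 0.34 on the log2 scale. The count is thus no measure of stability. No paired analysis was possible because each genotype has 1 array. No gene has an estimate of the error between cultures or arrays. Genes read by 1 probe set, Atp5md among them, also lack a spread between probe sets, and signals near the floor limit the tissue isoforms.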

Other observations

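Probe sets annotated to several symbols were left out of the gene values, and some of them read respiratory chain transcripts together with a close copy. Probe sets shared by Ndufb4 and its copies, whose own probe set was below the floor, had signals of 6721 in Slc39a13-KO and 10445 in wild-type (log2 ratio -0.64), and of 4578 in Slc39a13-KO and 5949 in wild-type (-0.38). The shared probe set of Ndufs6 had 3030 in Slc39a13-KO and 4206 in wild-type (-0.47), and the brighter one of Ndufa11 had 4639 in Slc39a13-KO and 5995 in wild-type (-0.37), while its dimmer one had 150 in Slc39a13-KO and 94.6 in wild-type (0.67). For Ndufs5, the probe set shared with a pseudogene had 3736 in Slc39a13-KO and 5768 in wild-type (-0.63), beside -0.92 for its own. For Ndufab1, the one shared with a pseudogene had 3041 in Slc39a13-KO and 6347 in wild-type (-1.06). Signals of a gene and of its copy cannot be separated on these probe sets.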
